A study of Mus musculus with 12 samples.

Results

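MLL-AF9, the fusion of the histone methyltransferase MLL with AF9, is known for keeping a set of developmental genes switched on in acute myeloid leukaemia. Its Hox and Meis targets are the best studied. The 10 genes described here are targets outside those families: Mecom, Mef2c, Lmo2, Ikzf2, Zfp521, Runx2 and Zeb2, which code for transcription factors or their adaptors, Jmjd1c, which codes for a chromatin protein, Cdk6, which codes for a cell cycle kinase, and Cpeb2, which codes for an RNA-binding protein. They were given as a list of names, chosen with earlier results of these data known. Measured values enter the rule only in the choice of each gene's probe set. Each was represented by the probe set annotated to that symbol alone with the highest mean over all arrays. Of the 10 genes, 8 had such a probe set, among 22180 genes on the array. Runx2 had no listed probe set, and the 2 probe sets of Zeb2 carried another gene's symbol as well, Zeb2os or Mir5129, so that neither gene has a value here.

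The series asked how expression changes in MLL-AF9 leukaemias of mice when Dnmt3b, a de novo DNA methyltransferase, is overexpressed. It held 12 arrays of total RNA from 6 leukaemias, all induced with MLL-AF9. Leukaemias 73, 75 and 79 were labelled WT, called wild type here, and leukaemias 81, 83 and 85 were labelled Dnmt3b-knockin. Cells of each leukaemia were sorted by flow cytometry for c-kit, a receptor tyrosine kinase found on immature blood cells, into 1 positive and 1 negative sample. This gave 4 groups of 3 arrays: wild-type c-kit-positive, wild-type c-kit-negative, knock-in c-kit-positive and knock-in c-kit-negative. Mouse strain, age and the promoter that drives the knock-in are not stated in the labels. They also do not say whether each number is a separate mouse, so the p-values concern these 6 leukaemias only. The main p-values rest on the spread of arrays within the 4 groups, and do not pair both arrays of a leukaemia. Those by genotype over both fractions rest on the spread between the 6 leukaemia means. Results with the leukaemia number as a block are named as such. The titles name bone marrow and the source field names leukaemic spleen.

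The labels were checked against the data first. Dnmt3b, on its log2 scale, read 6.66, 6.41 and 6.33 in wild-type and 6.49, 6.38 and 6.33 in knock-in c-kit-positive cells. In c-kit-negative cells it read 6.25, 6.38 and 6.10 in wild-type and 6.16, 6.34 and 6.64 in knock-in leukaemias. The log2 difference over both fractions was 0.03, with a 95% confidence interval from -0.19 to 0.25 and an adjusted p of 0.964 in limma, so these arrays did not show the labelled overexpression. Whether the probe set reads the knock-in transcript is not stated, and the genotype is therefore always given as labelled. Kit did separate the fractions, at 7.88 to 8.34 on the c-kit-positive and 6.47 to 6.87 on the c-kit-negative arrays. Myeloid and leucocyte genes marked all 12 arrays: Spi1, the myeloid factor PU.1, read 8.56 to 9.15, Itgam 8.16 to 10.19 and Ptprc, the pan-leucocyte antigen CD45, 7.77 to 9.24. Leukaemia 81 stood apart in Xist, which coats the silenced X chromosome, at 6.30 and 6.27 against 9.83 to 11.66 on the other 10 arrays. All values are log2 intensities after RMA, a summary of an array's probes, and a difference of 1 is a doubling. A difference was called where limma's p, adjusted by the Benjamini-Hochberg method over 19152 tested genes, was below 0.05. All 8 measured members exceeded the filter for testing, a log2 value of 4.61, on 12 of 12 arrays. In sorted but bulk RNA, fewer cells that express a gene and less of its RNA per cell cannot be told apart.

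**Figure D1:**
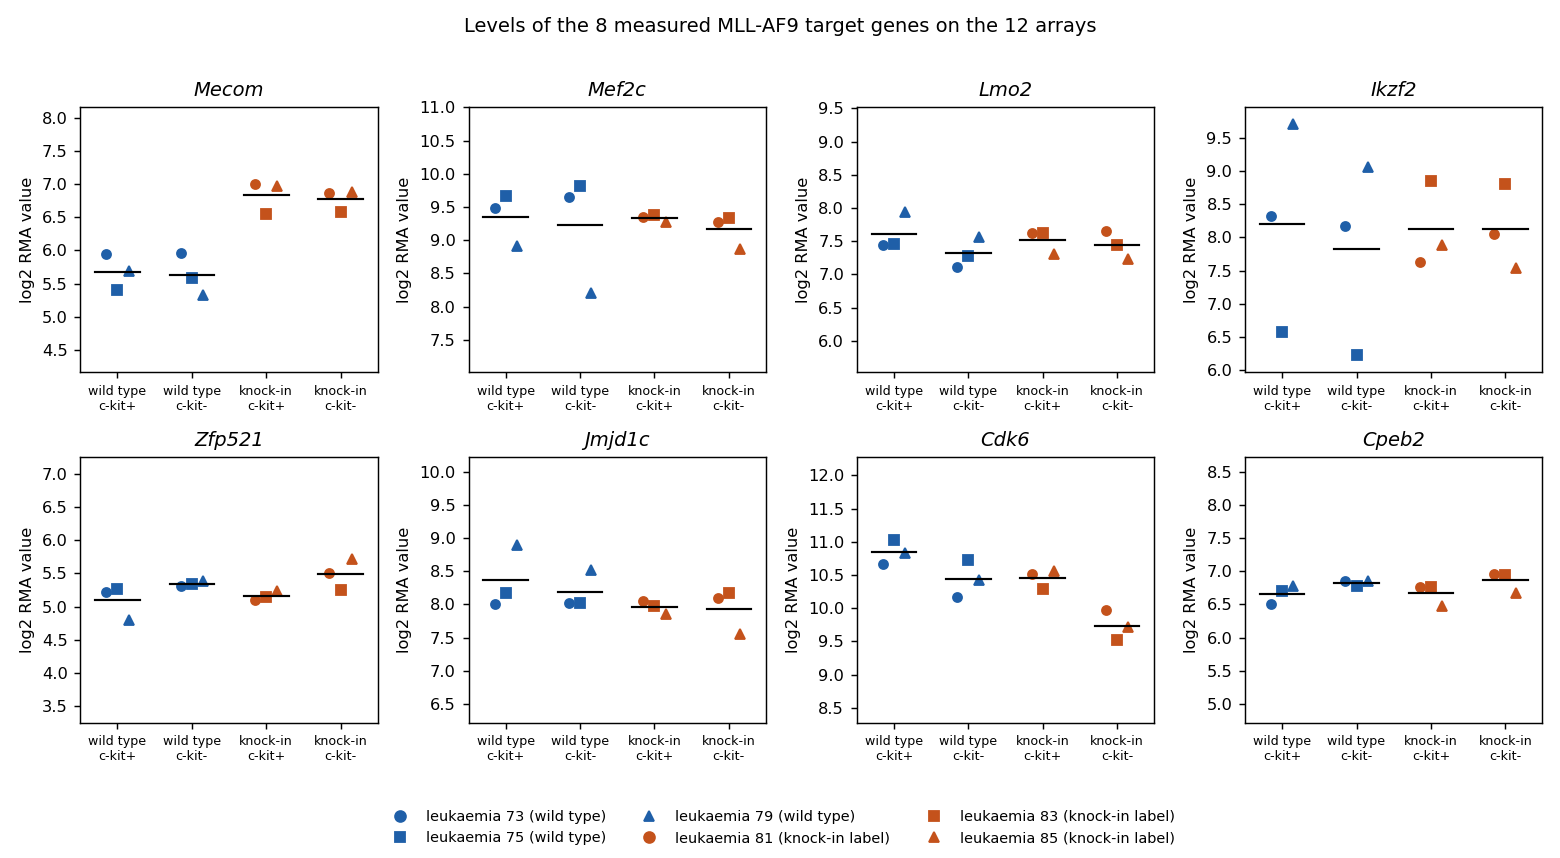
Log2 RMA value of each of the 8 measured genes on the 12 arrays, by genotype label and c-kit fraction, with 1 point per leukaemia and a bar at the mean of each group of 3; every panel spans the same number of log2 units, and levels are not comparable between genes. Mecom separates the genotype labels in both fractions, Cdk6 steps down from c-kit-positive to c-kit-negative cells, and Ikzf2 is spread widely within groups.

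Mecom codes for EVI1 and the longer MDS1-EVI1, zinc-finger transcription factors of blood stem cells, and a high EVI1 level marks a class of acute myeloid leukaemias with poor outcome. RefSeq promoter windows, 250 bases before to 50 after a transcription start in GRCm38.p6, were read for 4 of the 10 genes. Zfp521 was left out of this reading, so the count does not say that it lacks a window. Mecom had windows at its outermost start, chr3:30509710-30510009, and at an internal start, chr3:30013155-30013454, both on the minus strand. Both are shown because the series' title concerns DNA methylation and Mecom differed between the genotype labels. Capitals mark CG, the dinucleotide that Dnmt3b methylates, and methylation itself was not analysed here.
Mecom outermost start: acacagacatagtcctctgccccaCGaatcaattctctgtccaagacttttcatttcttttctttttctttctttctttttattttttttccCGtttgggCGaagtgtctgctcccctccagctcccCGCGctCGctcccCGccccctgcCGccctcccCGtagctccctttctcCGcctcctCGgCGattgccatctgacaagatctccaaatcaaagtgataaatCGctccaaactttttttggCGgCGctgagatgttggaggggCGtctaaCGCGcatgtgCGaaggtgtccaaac
Mecom internal start: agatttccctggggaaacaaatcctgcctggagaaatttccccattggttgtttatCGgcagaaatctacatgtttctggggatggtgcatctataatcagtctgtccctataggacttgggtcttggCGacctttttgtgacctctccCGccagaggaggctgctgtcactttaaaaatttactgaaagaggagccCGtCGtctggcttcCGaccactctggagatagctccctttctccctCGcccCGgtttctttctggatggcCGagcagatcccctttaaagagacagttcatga
The outermost window held 19 CG and the internal window 9, against a median of 7 over all 32851 windows of the table. Fewer CG than in these windows were found in 71.9% and 54.2% of all windows. Both windows held the motif GATA, on either strand, as did 57.9% of all windows.

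In wild-type c-kit-positive cells Mecom read 5.94, 5.40 and 5.69 in leukaemias 73, 75 and 79, a mean of 5.68 ± 0.273 (SD, n = 3). In knock-in c-kit-positive cells it read 7.01, 6.55 and 6.97 in leukaemias 81, 83 and 85, a mean of 6.84 ± 0.255 (SD, n = 3). The c-kit-negative cells repeated this, with 5.97, 5.58 and 5.32 in wild-type and 6.87, 6.58 and 6.88 in knock-in leukaemias, means of 5.63 ± 0.325 and 6.78 ± 0.171 (SD, n = 3 each). All 6 arrays labelled knock-in lay above all 6 wild-type arrays, and leukaemia 83 was the lowest of the knock-in leukaemias in both fractions.

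Mecom was higher in the knock-in leukaemias by 1.16 ± 0.185 (SE) on the log2 scale in c-kit-positive cells, a 2.24-fold difference (95% confidence interval 0.76 to 1.56, limma adjusted p = 0.0304). In c-kit-negative cells the difference was 1.15 ± 0.185 (SE), with an interval from 0.75 to 1.55 and an adjusted p of 0.0487. It was the only member called by genotype in either fraction. Over all tested genes, 0.141% were called in c-kit-positive and 0.0627% in c-kit-negative cells. By its p, Mecom ranked 18 and 12 among the 19152 genes. With the means of both fractions of each leukaemia, 3 against 3, the log2 difference was 1.16, from 0.80 to 1.51, and the call was not reached (adjusted p = 0.11, rank 9). In that comparison 0.0261% of genes and none of the 8 members were called. An unadjusted p below 0.05 was found for 2 members, Mecom and Cdk6, and for 8.37% of all tested genes. With the leukaemia number as a random block in limma the same difference passed, with an adjusted p of 0.00448 and an interval from 0.85 to 1.47, where 0.178% of all genes were called. That fit gives all genes 1 correlation between the arrays of a leukaemia, 0.353, and its p is too small for a gene with a higher one. The SD between leukaemias of a label was 0.24 for Mecom and 0.124 for the median gene. The SD of the fraction difference was 0.212 for Mecom and 0.176 for the median gene. The exact two-sided permutation test over the 6 leukaemia means gave p = 0.1, the smallest that 3 against 3 allows.

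The call depended on single leukaemias while the size of the difference stayed near its value. Without leukaemia 75, 79, 83 or 85, the c-kit-positive difference of Mecom ran from 1.02 to 1.31 with adjusted p-values from 0.0944 to 0.288. Without leukaemia 73, 75, 79, 83 or 85, the c-kit-negative difference ran from 1.003 to 1.33 with adjusted p-values from 0.0561 to 0.270. Without leukaemia 81, which stood apart in Xist, both calls held, with log2 differences of 1.08 and 1.11 and adjusted p-values of 0.0464 and 0.0483. Both differences were smaller there, and their SE was 0.209 in place of 0.185. Genes called rose from 27 to 123 in c-kit-positive and from 12 to 83 in c-kit-negative cells. The adjusted threshold is easier to pass where more genes have a small p.

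A second probe set of Mecom, 17404503, read the gene with a smaller difference than the described one, 17404478. Its c-kit-positive values were 5.74, 5.25 and 5.33 in wild-type and 5.70, 5.82 and 5.76 in knock-in leukaemias, and the groups overlapped. Its c-kit-negative values were 5.55, 5.26 and 5.50 in wild-type and 5.78, 6.003 and 5.87 in knock-in leukaemias, and the groups did not overlap. The knock-in leukaemias were higher on this probe set by 0.32 in c-kit-positive cells (interval 0.03 to 0.61, limma adjusted p = 0.437) and by 0.45 in c-kit-negative cells (interval 0.16 to 0.73, adjusted p = 0.623). Neither difference passed, and both intervals lay below that of the described probe set. Which transcripts of Mecom each probe set reads is not given in the files.

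**Figure D2:**
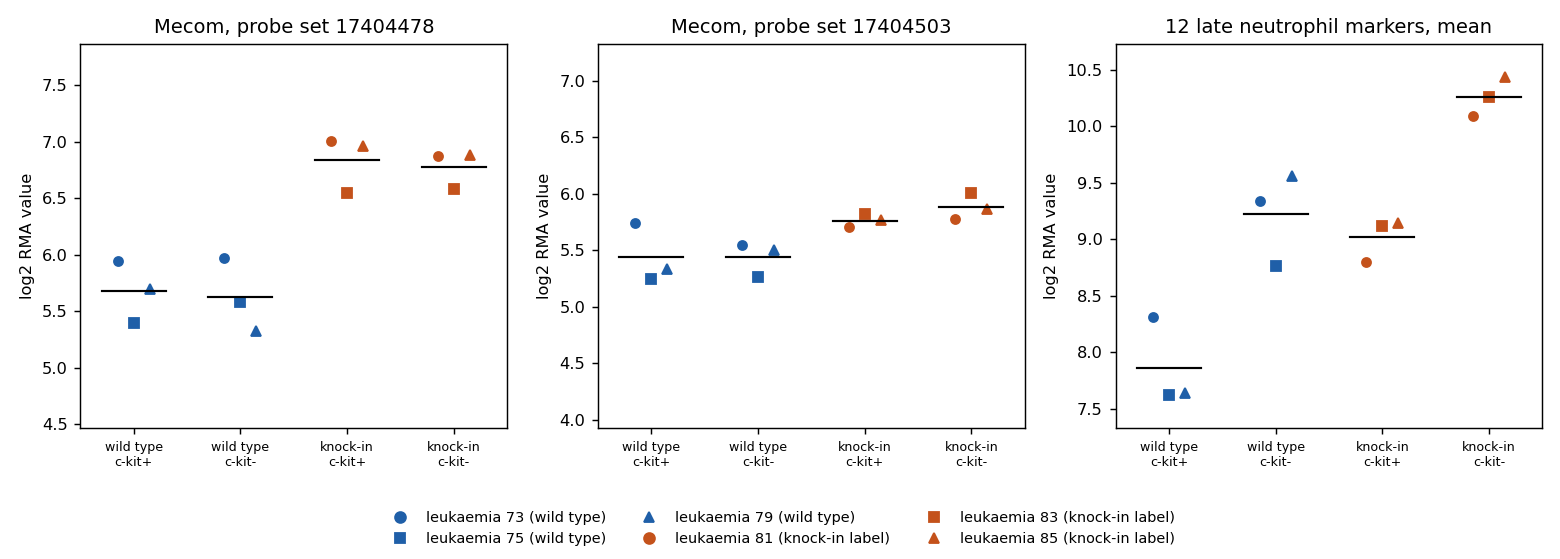
Log2 RMA value of both Mecom probe sets and the mean log2 value of 12 late neutrophil markers on each array, by genotype label and c-kit fraction, with 1 point per leukaemia and a bar at the group mean. Between the genotype labels, the group means of probe set 17404478 differ by more than 1 log2 unit in both fractions. Those of probe set 17404503 differ by 0.32 and 0.45, and its c-kit-positive groups overlap. The neutrophil markers differ between both genotype labels and fractions.

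Markers of mature neutrophils also differed between the labels. The mean log2 value over 12 late neutrophil genes ran from 7.62 to 8.31 in wild-type and from 8.80 to 9.15 in knock-in c-kit-positive cells, and from 8.76 to 9.57 and 10.09 to 10.44 in c-kit-negative cells. In c-kit-positive cells 3 of the 12 were called higher in the knock-in leukaemias, Ltf, Ly6g and S100a8, and in c-kit-negative cells 3 were, Ltf, Ly6g and Cxcr2. The shares of all tested genes called in these comparisons were 0.141% and 0.0627%. Their part in the genotype difference of Mecom was not tested.

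Markers of other cell types known to express Mecom were read on the same arrays. The mean over 7 endothelial markers ran from 5.30 to 5.38 and from 5.41 to 5.49 in the wild-type groups and from 5.36 to 5.48 and from 5.54 to 5.56 in the knock-in groups, c-kit-positive cells first, and Emcn did not exceed the filter for testing. The mean over 7 of 8 blood progenitor markers ran from 6.01 to 6.17 in knock-in and from 6.32 to 7.03 in wild-type c-kit-positive cells, and from 5.91 to 6.15 and 6.42 to 6.59 in c-kit-negative cells. In limma 0 of these 7 were called by genotype in either fraction, 2 had an unadjusted p below 0.05 in each, and their median log2 differences were -0.16 and -0.07. The shares of all tested genes with such an unadjusted p were 9.89% and 6.1%, and 0.141% and 0.0627% were called. The list mean leant on single genes such as Cd34, at 7.28 to 9.54 in wild-type and 6.65 to 7.13 in knock-in c-kit-positive cells. The mean over 5 of 7 megakaryocyte markers ran from 5.97 to 6.19 in wild-type and from 6.23 to 6.25 in knock-in c-kit-positive cells, and the ranges overlapped in c-kit-negative cells, at 6.08 to 7.02 and 6.10 to 6.53. The part of these cells in the Mecom difference was not tested.

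Of 9 listed symbols of EVI1 target genes, 6 were tested, and limma called none of them by genotype in either fraction or over both. An unadjusted p below 0.05 was found for 1 of them in c-kit-positive cells, 0 in c-kit-negative cells and 1 over both. Of all tested genes 9.89%, 6.1% and 8.37% had one. The EVI1 target was in each case Adgrg1, an adhesion receptor of stem cells, also listed by its older symbol Gpr56. Adgrg1 had log2 differences of -1.22 (limma adjusted p = 0.377) in c-kit-positive and -0.88 (adjusted p = 0.846) in c-kit-negative cells. The median difference of the 6 genes was -0.09 and -0.08, against 0.01 and -0.00 over all tested genes. Between fractions, over both genotype labels, Itga6, an integrin chain, was higher in c-kit-positive cells by 0.52 (limma adjusted p = 0.00675). With the leukaemia number as a block Cebpe, a granulocyte factor, was called higher as well. These 1 and 2 of 6 genes stood beside 8.25% of all tested genes without and 19.6% with the block.

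Over the 12 arrays the values most like those of Mecom were those of Chil1, Ddx60 and Kdm5b, with Pearson r of 0.94, 0.921 and 0.916. The 99th percentile of r over all tested genes was 0.69. After the 4 group means were removed, AF357355, Carmil1 and Cyp2t4 came first, with r of 0.924, 0.91 and 0.904. These are descriptions over 12 arrays that share 6 leukaemias.

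Mef2c is a MADS-box transcription factor of lymphoid and myeloid progenitors. In c-kit-positive cells it read 9.49, 9.67 and 8.91 in wild-type and 9.35, 9.38 and 9.28 in knock-in leukaemias. In c-kit-negative cells it read 9.65, 9.81 and 8.21 in wild-type and 9.28, 9.34 and 8.87 in knock-in leukaemias. Leukaemia 79 was the lowest in both fractions, and the genotype groups overlapped. The knock-in minus wild-type log2 difference was -0.02 in c-kit-positive cells (interval -0.73 to 0.70, limma adjusted p = 0.993) and -0.06 in c-kit-negative cells (interval -0.78 to 0.65, adjusted p = 0.994). Without leukaemia 79 the second became -0.57 and still did not pass. The second probe set of Mef2c, 17294682, gave log2 differences of 0.03 and 0.09.

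Lmo2 is a LIM-only adaptor that joins DNA-binding factors such as Tal1 and Gata2 and binds the partner Ldb1. In c-kit-positive cells Lmo2 read 7.44, 7.46 and 7.94 in wild-type and 7.62, 7.62 and 7.31 in knock-in leukaemias. In c-kit-negative cells it read 7.11, 7.28 and 7.56 in wild-type and 7.66, 7.44 and 7.23 in knock-in leukaemias. The genotype groups overlapped in both fractions, at log2 differences of -0.10 (interval -0.46 to 0.26, limma adjusted p = 0.898) and 0.12 (interval -0.23 to 0.48, adjusted p = 0.971).

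Ikzf2 codes for Helios, a zinc-finger factor of the Ikaros family. In wild-type leukaemias 73, 75 and 79 it read 8.32, 6.58 and 9.70 in c-kit-positive and 8.18, 6.23 and 9.06 in c-kit-negative cells. In knock-in leukaemias 81, 83 and 85 it read 7.63, 8.84 and 7.89 in c-kit-positive and 8.05, 8.80 and 7.54 in c-kit-negative cells. The fractions of a leukaemia differed by 0.04 to 0.64, and the wild-type group held both the highest and the lowest leukaemia. The means of both fractions ran from 6.40 in leukaemia 75 to 9.38 in leukaemia 79, a 7.86-fold range. The SD between leukaemias of a label was 1.15 on the log2 scale, which ranked 8 of 19152 genes, where the median gene had 0.124. The genotype difference, 0.12 over both fractions, had an interval from -1.36 to 1.59 (limma adjusted p = 0.983). It became -0.69 without leukaemia 75 and 0.80 without leukaemia 79.

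Zfp521 is a zinc-finger protein of early blood progenitors. Its values were close to the filter for testing, at 5.21, 5.27 and 4.79 in wild-type and 5.10, 5.14 and 5.24 in knock-in c-kit-positive cells. In c-kit-negative cells it read 5.31, 5.34 and 5.38 in wild-type and 5.51, 5.24 and 5.71 in knock-in leukaemias. The genotype groups overlapped, with log2 differences of 0.07 and 0.15 (limma adjusted p = 0.923 and 0.947).

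Jmjd1c is a jumonji-domain protein of the histone demethylase family and is needed for the growth of MLL-AF9 leukaemia cells. In c-kit-positive cells it read 8.01, 8.17 and 8.89 in wild-type and 8.06, 7.98 and 7.86 in knock-in leukaemias. In c-kit-negative cells it read 8.02, 8.01 and 8.52 in wild-type and 8.10, 8.17 and 7.55 in knock-in leukaemias. Leukaemia 79 was the highest and leukaemia 85 the lowest in both fractions. The log2 differences of -0.39 (interval -0.88 to 0.09) and -0.25 (interval -0.73 to 0.24) did not pass (limma adjusted p = 0.615 and 0.943). The first was -0.13 without leukaemia 79, and the second was -0.08 without leukaemia 79 and -0.05 without leukaemia 85. Its 2 RefSeq promoter windows, both at internal starts, held 47 and 13 CG, and the 3 windows of Mef2c held 1, 10 and 4.

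Cdk6 pairs with D-type cyclins to drive cells out of G1 and is a dependency of MLL-AF9 leukaemia. Its RefSeq promoter window, chr5:3343643-3343942 on the plus strand of GRCm38.p6, is shown because Cdk6 was the member called between fractions. The window lies at an internal start, as the annotated gene begins at base 3341004. Capitals again mark CG.
Cdk6: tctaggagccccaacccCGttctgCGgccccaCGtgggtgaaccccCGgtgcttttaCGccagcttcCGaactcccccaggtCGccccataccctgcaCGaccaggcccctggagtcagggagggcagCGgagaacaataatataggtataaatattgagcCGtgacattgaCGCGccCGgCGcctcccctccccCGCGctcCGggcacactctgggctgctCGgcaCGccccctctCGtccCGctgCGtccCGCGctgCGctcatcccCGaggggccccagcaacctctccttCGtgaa
The window held 27 CG, more than 84.5% of all windows had. It held the palindromic motif CACGTG, an E-box, which 7.15% of all windows held. The HOX core motif TTTATGG, searched on both strands, was in none of the 8 windows read for these genes and in 2.75% of all windows.

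In wild-type leukaemias 73, 75 and 79 Cdk6 read 10.66, 11.03 and 10.83 in c-kit-positive and 10.17, 10.72 and 10.42 in c-kit-negative cells. In knock-in leukaemias 81, 83 and 85 it read 10.52, 10.29 and 10.56 in c-kit-positive and 9.98, 9.52 and 9.71 in c-kit-negative cells. Every leukaemia had more Cdk6 signal in its c-kit-positive cells. The differences between the fractions were 0.49, 0.31, 0.41, 0.54, 0.77 and 0.84 on the log2 scale, in the order of the leukaemia numbers.

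Over both genotype labels Cdk6 was higher in c-kit-positive cells by 0.56 ± 0.112 (SE), from 0.32 to 0.80 (limma adjusted p = 0.00936). The exact sign-flip permutation test over the 6 leukaemias gave p = 0.0312, the smallest it can give. Cdk6 was the only member called in this comparison, in which 8.25% of all tested genes were, and it ranked 503 by its p. Within the knock-in leukaemias the difference of 0.72 ± 0.159 (SE) passed (1.64-fold, limma adjusted p = 0.0381), where 1.88% of all genes were called. Without leukaemia 79, 81, 83 or 85 that call ended, at differences of 0.65 to 0.80 and adjusted p-values of 0.0512 to 0.229. Within the wild-type leukaemias the difference of 0.41 ± 0.159 (SE) did not pass (adjusted p = 0.234), and 0.768% of all genes were called. No member was called there, and 1 had an unadjusted p below 0.05, as did 16.2% of all tested genes. With the leukaemia number as a fixed block the wild-type difference passed in limma, with an adjusted p of 0.0214, where 11.0% of all genes were called.

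The fraction difference of Cdk6 did not differ between the genotype labels by limma's interaction test. The interaction was 0.31, with an interval from -0.18 to 0.80. The test called 0.0% of the 19152 genes, of which 427 had an unadjusted p below 0.05, and 0 of the 8 members at either threshold. With the block it also called 0 genes, and the interval for Cdk6 was 0.01 to 0.61 (adjusted p = 0.848). For Mecom the interaction was 0.01, from -0.56 to 0.57.

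Between the genotype labels Cdk6 ran the opposite way to Mecom without passing the test. The knock-in minus wild-type difference was -0.39 (interval -0.73 to -0.05, limma adjusted p = 0.433) in c-kit-positive and -0.70 (interval -1.04 to -0.36, adjusted p = 0.351) in c-kit-negative cells. The groups did not overlap in either fraction. Over both fractions the difference was -0.54, with an exact permutation p of 0.1 and a limma adjusted p of 0.33. The late neutrophil markers ran higher where Cdk6 ran lower, in knock-in against wild-type and in c-kit-negative against c-kit-positive cells, with the ranges given above. Between the fractions, 7 of these 12 were called lower in c-kit-positive cells over both genotype labels, as were 4 of 9 monocyte and macrophage markers, Csf1r, Cx3cr1, Ccr2 and Cd68, where 8.25% of all genes were called. With the block these were 10 of 12 and 6 of 9, where 19.6% of all genes were called. The mean over the 9 monocyte markers ran from 7.26 to 7.56 and 7.44 to 8.05 in wild-type and from 7.05 to 7.29 and 7.52 to 8.19 in knock-in leukaemias, c-kit-positive cells first. The part of these cells in the differences of Cdk6 was not tested.

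The values most like those of Cdk6 over the 12 arrays were those of Washc1, Cln6 and Top3b, with Pearson r of 0.963, 0.953 and 0.951, where the 99th percentile over tested genes was 0.858. After the group means were removed these were Amdhd2, Mtif3 and Nudt16, with r of 0.979, 0.974 and 0.967.

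**Figure D3:**
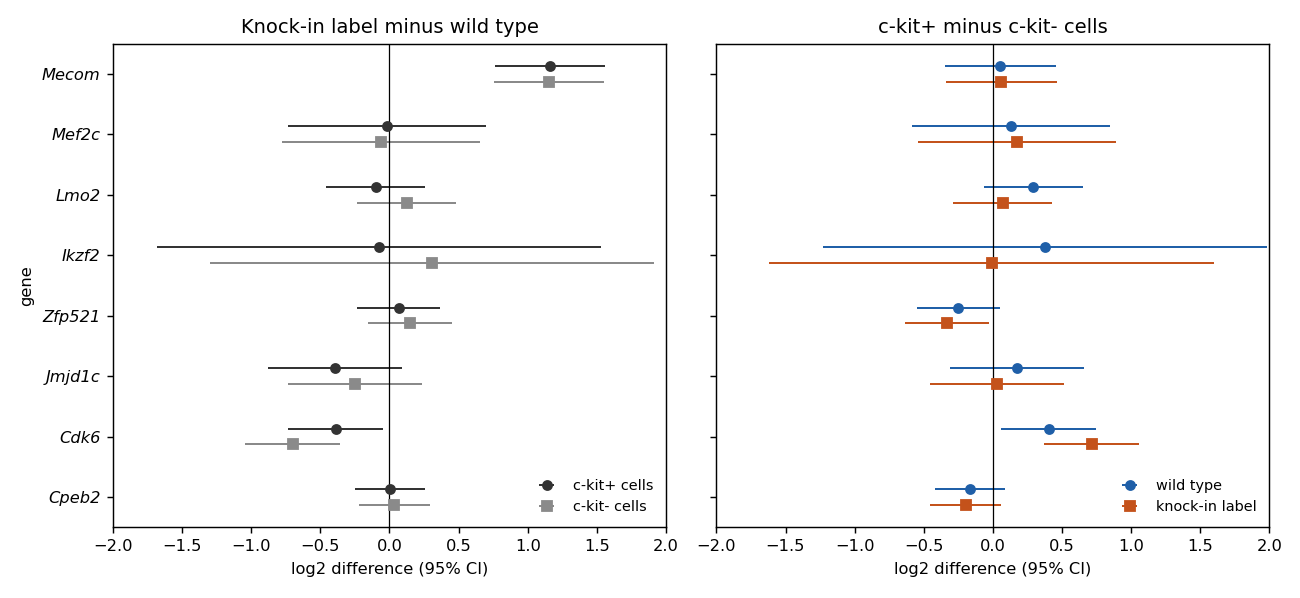
Log2 difference of each measured gene in limma with its 95% confidence interval, on the left knock-in minus wild-type label in c-kit-positive and c-kit-negative cells, on the right c-kit-positive minus c-kit-negative cells in each genotype label. Mecom stands at 1.16 and 1.15 on the left with intervals above 0, Cdk6 at 0.41 and 0.72 on the right, and the intervals of Ikzf2 span more than 3 log2 units.

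Cpeb2 binds cytoplasmic polyadenylation elements of messenger RNAs and controls their translation. In c-kit-positive cells it read 6.50, 6.70 and 6.78 in wild-type and 6.76, 6.76 and 6.48 in knock-in leukaemias. In c-kit-negative cells it read 6.85, 6.78 and 6.86 in wild-type and 6.96, 6.95 and 6.68 in knock-in leukaemias. The genotype labels overlapped, with log2 differences of 0.00 and 0.03. The intervals ran from -0.25 to 0.26 and from -0.22 to 0.29 (limma adjusted p = 0.996 and 0.99).

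Cpeb2 and Zfp521 were lower in the c-kit-positive cells of all 6 leukaemias. The differences of Cpeb2 were -0.35, -0.08, -0.07, -0.21, -0.19 and -0.20 in the order of the leukaemia numbers, a mean of -0.18 (interval -0.36 to -0.00, limma adjusted p = 0.211). Those of Zfp521 were -0.10, -0.06, -0.59, -0.42, -0.10 and -0.48, a mean of -0.29 (interval -0.50 to -0.08, adjusted p = 0.0944). Neither passed, and with the leukaemia number as a block Zfp521 did, with an adjusted p of 0.0337, where 19.6% of all genes were called. The exact sign-flip p was 0.0312 for each, the smallest possible. A difference of the same sign in all 6 leukaemias was found for 3 of the 8 members, with Cdk6 as the third, and for 21.9% of all tested genes.

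The other members had smaller or mixed differences between fractions. Lmo2 was higher in the c-kit-positive cells of 5 of 6 leukaemias, by 0.33, 0.18, 0.37, -0.04, 0.18 and 0.07, and the mean of 0.18 did not pass (limma adjusted p = 0.378). The differences of Ikzf2, 0.14, 0.34, 0.64, -0.42, 0.04 and 0.36, had both signs. So did those of Mef2c, -0.16, -0.15, 0.70, 0.07, 0.04 and 0.41. In Mef2c the largest difference was that of leukaemia 79, whose c-kit-negative array held the lowest value of the gene. Mecom, at -0.02, -0.19, 0.37, 0.14, -0.04 and 0.08, and Jmjd1c, at -0.01, 0.16, 0.37, -0.04, -0.19 and 0.31, were each higher in 3 leukaemias and lower in 3. Over all 8 members the median difference was 0.13, against -0.03 over all tested genes.

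**Figure D4:**
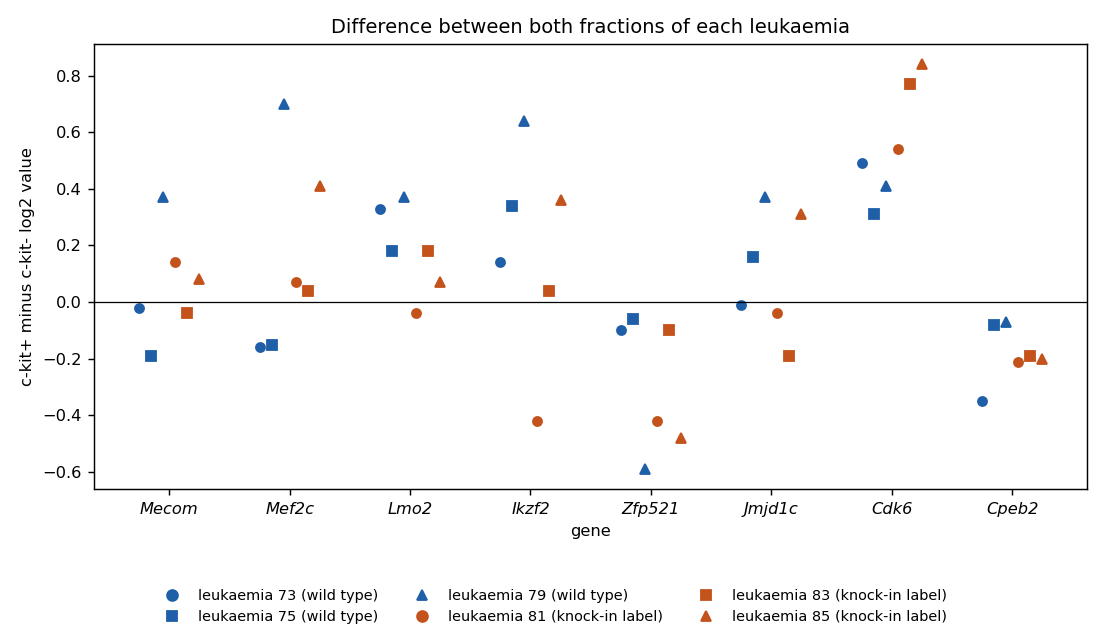
Difference between the c-kit-positive and c-kit-negative log2 RMA value of each leukaemia, 1 point per leukaemia, for the 8 measured genes. Cdk6 is above 0 and Cpeb2 and Zfp521 are below 0 in all 6 leukaemias, and the other 5 genes have both signs.

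Across the genotype comparisons, the groups did not overlap for 2 of the 8 members in c-kit-positive cells and for 2 in c-kit-negative cells, in each case Mecom and Cdk6. Of all tested genes, 17.4% and 8.88% did not overlap in these comparisons. The median difference of the 8 members was -0.05 in c-kit-positive and 0.08 in c-kit-negative cells, against 0.01 and -0.00 over all tested genes.

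The order of the 4 group means followed from the same values. Mecom had the knock-in groups first, c-kit-positive at 6.84 and c-kit-negative at 6.78, then the wild-type groups at 5.68 and 5.63, and only the step between the labels exceeded the larger SD of the 2 groups beside it, the measure used for each step. Cdk6 ran from wild-type c-kit-positive at 10.84 to knock-in c-kit-positive at 10.45, wild-type c-kit-negative at 10.44 and knock-in c-kit-negative at 9.74, and the first and last steps exceeded that SD. The means of Zfp521 were highest in knock-in c-kit-negative cells, at 5.49, and lowest in wild-type c-kit-positive cells, at 5.09. Those of Cpeb2 ran from 6.66 to 6.86, with both c-kit-negative groups on top. In both genes only the step from wild-type c-kit-negative to knock-in c-kit-positive cells exceeded it. For Mef2c (9.16 to 9.36), Jmjd1c (7.94 to 8.36), Lmo2 (7.32 to 7.61) and Ikzf2 (7.82 to 8.20), every step between neighbouring group means was within the larger SD of the pair.

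The spread between single leukaemias differed from gene to gene. The means of both fractions spanned 2.27-fold for Mef2c, from 8.56 in leukaemia 79 to 9.74 in leukaemia 75, and 2.01-fold for Jmjd1c, from 7.70 in leukaemia 85 to 8.71 in leukaemia 79. The spans were 1.4-fold for Lmo2, 1.31-fold for Zfp521 and 1.22-fold for Cpeb2. The SD between leukaemias of a label was 0.466 for Mef2c, larger than in 99.0% of tested genes, and 0.307 for Jmjd1c, larger than in 95.1%. Leukaemia 79 held the highest or lowest mean in 5 of the 8 members, highest in Jmjd1c, Lmo2 and Ikzf2 and lowest in Mef2c and Zfp521. It did so in 36.3% of all tested genes. Leukaemia 85 was at an end in 4 members and in 58.6% of genes, leukaemia 75 in 4 members and 26.3%, and leukaemia 73 in 0 members and 18.7%. For leukaemia 81 these were 2 members and 37.0%, and for leukaemia 83 they were 1 member and 22.9%. Over the 12 arrays Lmo2 and Jmjd1c varied together, with a Pearson r of 0.73, and the most opposite pairs were Zfp521 with Jmjd1c at -0.67, Zfp521 with Lmo2 at -0.61 and Ikzf2 with Mef2c at -0.59. These are descriptions of 12 arrays, in which both arrays of a leukaemia share its cells.

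**Figure D5:**
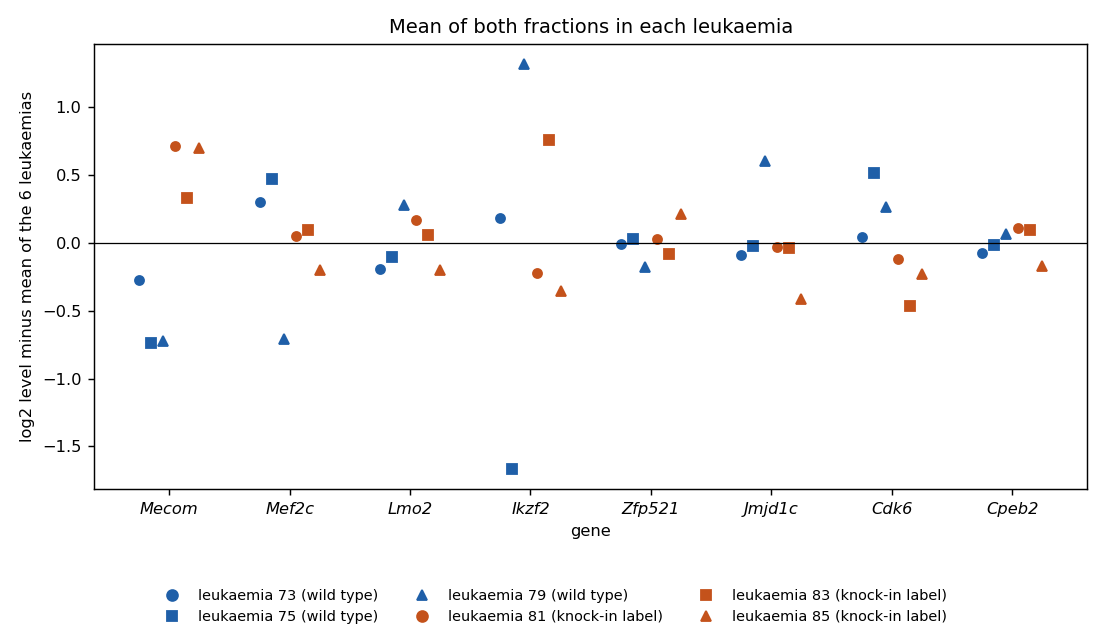
Mean log2 RMA value of both fractions of each leukaemia, as its distance from the mean of the 6 leukaemias, for the 8 measured genes. Ikzf2 is the most spread, with leukaemia 75 at the bottom and leukaemia 79 at the top, and Mecom is the gene whose knock-in points all lie above 0 and whose wild-type points all lie below.

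The Hox, Meis and other MLL-AF9 targets outside these genes were read for comparison, 14 of 15 tested. By genotype limma called none of them, in c-kit-positive cells, c-kit-negative cells or over both, while 4, 3 and 5 had an unadjusted p below 0.05. Of all tested genes 9.89%, 6.1% and 8.37% did. Their median log2 difference was -0.24, -0.37 and -0.34, and that of all genes 0.01, -0.00 and 0.01. Flt3, a receptor tyrosine kinase of progenitors, had the smallest p over both fractions, at a log2 difference of -1.54 (interval -2.03 to -1.05, limma adjusted p = 0.111). Hoxa9, the homeobox gene central to MLL leukaemia, was at -0.65 (adjusted p = 0.325) in c-kit-positive and -0.53 (adjusted p = 0.788) in c-kit-negative cells. Between fractions 1 of the 14 passed, Myb, a transcription factor of immature blood cells, higher in c-kit-positive cells by 1.01 (limma adjusted p = 0.00175). With the leukaemia number as a block 5 did, Myb with Hoxa5, Hoxa6, Hoxa7 and Hoxa9, all higher in c-kit-positive cells. Of all tested genes 8.25% were called without and 19.6% with the block.

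The cofactors that MLL fusions recruit, of the DOT1L, super elongation and menin complexes, were tested in 21 of 24 cases. By genotype limma called none in c-kit-positive cells, in c-kit-negative cells or over both, and none had an unadjusted p below 0.05. Between fractions 4 were higher in c-kit-positive cells: Mllt10, a partner of DOT1L, by 0.39 (limma adjusted p = 0.0126), Dpy30 by 0.45 (adjusted p = 0.0144), Aff1, a scaffold of the super elongation complex, by 0.43 (adjusted p = 0.0227), and Ash2l by 0.41 (adjusted p = 0.0467). Dpy30 and Ash2l are core subunits of MLL methyltransferase complexes. With the leukaemia number as a block 8 of the 21 were higher and none was lower. All tested genes were called at 8.25% without and 19.6% with the block, and nothing particular to this list was tested.

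Relatives and partners of the members were read in the same way. Of 18 tested paralogs, limma called none by genotype, and 3, 5 and 5 had an unadjusted p below 0.05 in c-kit-positive cells, in c-kit-negative cells and over both, against 9.89%, 6.1% and 8.37% of all tested genes. Zeb1, the relative of the unmeasured Zeb2, was at 0.52 (adjusted p = 0.333) in c-kit-positive cells. Between fractions Mef2a was lower in c-kit-positive cells in wild-type leukaemias, at -0.83 (limma adjusted p = 0.0309), and in knock-in leukaemias, at -0.68 (adjusted p = 0.0394). Cdk4, the relative of Cdk6, was at 0.87 over both labels (adjusted p = 0.0512), and with the block Cdk4 and Runx1 were called higher. Of 25 tested protein partners none was called by genotype, and 6, 1 and 5 had an unadjusted p below 0.05 in the same comparisons. Ldb1, the partner of Lmo2, was at -0.40 (adjusted p = 0.206) in c-kit-positive cells. The E proteins Tcf12 and Tcf3, which bind DNA in Lmo2 complexes, were higher in c-kit-positive cells over both labels, by 0.49 (limma adjusted p = 0.0112) and 0.28 (adjusted p = 0.0248). These 2 of 25 stood beside 8.25% of all genes. With the block 5 partners were called, all higher, Ctbp1, Cbfb and Chd4 among them, a share near the 19.6% of all genes.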

How the data were processed

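The deposited table held log2 values for 41345 probe sets on 12 arrays, made by the authors with RMA in Affymetrix Expression Console, per the submitters' processing notes; versions and genome build are not given in the sources used here. A probe annotation listed exactly 1 symbol for 23521 probe sets, several for 1814 and none for 16010, and 23328 of those with 1 symbol matched RefSeq by Entrez number. The probe set with the highest mean was kept for each of 22180 genes. Values above log2 4.61, the 25th percentile, on at least 3 arrays left 19152 genes. These were fitted with limma 3.58.1 (R 4.3.3, statmod 1.5.0) to 4 group means over 12 arrays, without a block; the genotype comparison over both fractions used 6 leukaemia means. Tests were two-sided, with Benjamini-Hochberg adjustment. The labels give both arrays of a leukaemia the same number, and after removal of the group means their correlation was 0.279 to 0.601 in the 6 leukaemias, so the numbers pair the arrays; the random block had a consensus correlation of 0.353. The script was tested on simulated data. Arrays have no depth, so their number limits the precision. Named genes were all members, Kit and Dnmt3b, listed genes past the threshold or else up to 2 with the smallest p, and the 3 genes most correlated with each called member; Spi1, Itgam, Ptprc, Xist, Emcn and marker genes were read as checks. The members and lists were chosen with earlier results of these data known.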

Additional observations from a re-analysis of the deposited data

How the results depend on the processing

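Counts are of the 8 members called by limma. By genotype in c-kit-positive cells the count of 1 (Mecom) became 0 with the mean of a gene's probe sets (Mecom 0.74, adjusted p = 0.0760) and with the other probe set of the gene, which was added after seeing the data, and was 0 to 1 when 1 leukaemia was left out. In c-kit-negative cells the count of 1 became 0 without a filter (adjusted p = 0.0568), with arrays centred on their medians (1.14, adjusted p = 0.0783), with the mean of probe sets (0.80, adjusted p = 0.0861), with the other probe set and with the 6 arrays of the comparison alone (adjusted p = 0.222), and was 0 to 1 with a leukaemia left out. Over both fractions the count of 0 became 1 with the replicate block and with eBayes trend and robust settings (Mecom, adjusted p = 0.0349), and was 0 to 1 with a leukaemia left out, 1 without leukaemia 81 (adjusted p = 0.0448). Between fractions, the wild-type count of 0 became 1 with the replicate block. The knock-in count of 1 (Cdk6) became 0 with centred arrays (adjusted p = 0.0542), with trend and robust settings (adjusted p = 0.0762) and with 6 arrays alone (adjusted p = 0.0833), and was 0 to 1 with a leukaemia left out. The count over both labels of 1 became 2 with the replicate block, and Cdk6 kept its call under every alternative run. The interaction count was 0 under each. No called difference changed sign, and the causes of these changes were not tested. The replicate block changed no other call of a member. Counts of all genes called moved more with single leukaemias. By genotype, 27 in c-kit-positive cells ran from 0 without leukaemia 83 to 123 without 81, 12 in c-kit-negative cells from 3 without 73 or 75 to 83 without 81, and 5 over both fractions from 2 without 75, 79 or 83 to 115 without 81, with 34 under the block. Between fractions, 147 in wild-type leukaemias ran from 1 without 73 to 665 without 81, with 2109 under the block, 360 in knock-in leukaemias from 59 without 83 to 367 without 79, with 1666 under the block, and 1580 over both from 503 without 75 to 2092 without 81, with 3758 under the block. The interaction count of 0 was 1 without leukaemia 85.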
